A study of Mus musculus with 12 samples.

Results

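The Toll-like receptors of mouse tumour macrophages were followed on 12 one-colour Agilent arrays, through the 12 probes whose annotated gene name is Tlr1, Tlr2, Tlr3, Tlr4, Tlr5, Tlr6, Tlr7, Tlr8, Tlr9 or Tlr13. These 10 genes were listed by name, 5 as receptors of the cell surface and 5 as receptors of endosomes, and 9 of them were among the 20370 genes and features tested, the exception being Tlr3. The samples were 6 of YFP+ macrophages and 6 of YFP− macrophages. Both groups were sorted from pancreas tumours of female C57/B6 mice aged 8 to 10 weeks, implanted with tumours, and the labels leave the genotype of these samples unstated. The series' design text names FLT3-CRE/LSL-YFP mice, in which Cre recombinase driven by Flt3, a receptor of haematopoietic progenitors, switches on YFP in a cell and its descendants. YFP+ cells of such mice thus descend from a cell in which Cre had acted, and YFP− cells are those in which it had not, which by itself names no lineage. Wild-type and KPC mice and normal pancreas, also in the design text, were not analysed here. The labels do not say whether a sample came from 1 animal or from pooled animals, so the p-values measure the spread between these samples.

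Toll-like receptors bind molecules typical of microbes, and some also bind products of damaged cells. Those at the cell surface recognise mainly lipids, lipopeptides and flagellin. Those in endosomes recognise mainly nucleic acids and depend on the chaperone Unc93b1 to reach that compartment. Through the adaptors Myd88 and Ticam1 (TRIF) they activate NF-kB and interferon regulatory factors, and macrophages use them to switch on cytokine and co-stimulatory genes.

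Each value rests on hybridisation to a 60-base probe, and the receptors are related, so the probes of a receptor pair that works as a dimer and of an endosomal receptor are shown here. They are printed in lower case, with the longest run of letters that the Tlr1 and Tlr2 probes share in capitals. The array annotation places them on the minus strand of mm9, at chr5:65316115-65316174 for Tlr1, chr3:83640344-83640403 for Tlr2 and chrX:163683356-163683415 for Tlr8.
Tlr1: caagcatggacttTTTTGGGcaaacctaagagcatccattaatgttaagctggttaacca
Tlr2: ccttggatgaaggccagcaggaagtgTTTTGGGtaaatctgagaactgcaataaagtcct
Tlr8: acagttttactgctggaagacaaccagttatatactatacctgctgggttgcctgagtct
The shared run of the Tlr1 and Tlr2 probes was 7 bases of 60. Each of the 3 probes has at least 1 reading frame on the printed strand without a stop codon. The G and C content was 40.0% for the Tlr1 probe, 45.0% for the Tlr2 probe and 43.3% for the Tlr8 probe, against 26.7% for the Tlr3 probe, the lowest of the 12. Exon boundaries of the mm9 build were not used here, so the probes are not assigned to exons. In the RefSeq gene order Tlr1 and Tlr6 are neighbours on chromosome 5, and Tlr7 and Tlr8 are neighbours on chromosome X.

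None of the 9 receptors tested passed the threshold, an adjusted p of 0.05 (limma with Benjamini-Hochberg adjustment over all genes), in either direction. At that threshold 1.75% of all genes were called, 0.334% as higher in YFP+ samples and 1.41% as lower. The count of receptors with an unadjusted p under 0.05 was also 0 of 9, beside 11.2% of all genes. Of the 9 differences, YFP+ minus YFP−, 6 were positive and 3 negative, with a median of 0.09 on the log2 scale, against −0.03 over all genes. For 7 of the 9 the 95% interval lay within a 2-fold change either way, and for Tlr4 and Tlr6 it reached further. The sign was shared by all 6 tumour numbers in 0 of the 9, beside 8.38% of all genes, and the groups' values overlapped in all 9, while they were apart in 1.88% of all genes. A value that misses the threshold does not show that the groups have equal levels, and the intervals below give the sizes that these arrays leave possible. In bulk samples, fewer cells of a type and less RNA per cell cannot be told apart.

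Levels are log2 signal minus the array's 75th percentile, so 0 is the signal that 75% of the probes of that array stay under. They compare samples for 1 probe and not 1 receptor with another. All 9 tested receptors were well above background on all 12 arrays.

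Tlr2 is the shared partner of the lipopeptide receptors, pairing with Tlr1 for triacylated and with Tlr6 for diacylated lipopeptides. Its level was 1.90 at the lowest, 2.30 at the median and 2.81 at the highest in YFP+ samples, and 1.80, 2.38 and 2.93 in YFP− samples. The groups covered nearly the same range, with high and low samples in both. The difference was -0.003 with an SE of 0.24, which as a fold is 0.998 with a 95% interval of 0.696 to 1.43 (limma, adjusted p = 0.9996). Tlr1 stood at 1.25, 1.64 and 1.87 in YFP+ samples and at 0.61, 1.54 and 1.84 in YFP− samples (lowest, median, highest). The highest samples of the groups were close together, and 1 YFP− sample lay well below the rest. Its difference of 0.16 (SE 0.23) was positive in 3 of 6 tumour numbers (limma, adjusted p = 0.88). Tlr6 stood at −2.04, −0.73 and 0.01 in YFP+ samples, against −2.69, −1.33 and 0.04 in YFP− samples. These ranges overlapped almost wholly, and the difference of 0.39 (SE 0.48, 95% interval −0.66 to 1.44) is the least precise of the 9 (limma, adjusted p = 0.85).

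Tlr4, the lipopolysaccharide receptor, which works with Ly96 (MD-2) and Cd14, had the largest difference among the 9 listed receptors tested. Its level was −2.20, −1.09 and −0.32 in YFP+ samples and −3.02, −1.55 and −1.07 in YFP− samples. The 3 highest values of all were in YFP+ samples and the lowest in a YFP− sample, while the remaining samples of the groups were intermixed. The difference was 0.57 (SE 0.41), a fold of 1.48 with a 95% interval of 0.795 to 2.75, and it was positive in 4 of 6 tumour numbers (limma, adjusted p = 0.69). Tlr5, the flagellin receptor, stood at −2.02, −1.10 and −0.62 in YFP+ samples, and at −2.48, −0.88 and −0.29 in YFP− samples. The YFP− samples held both the lowest and the highest value. Its difference was −0.09 (SE 0.36, 95% interval −0.87 to 0.70, limma adjusted p = 0.96).

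**Figure D1:**
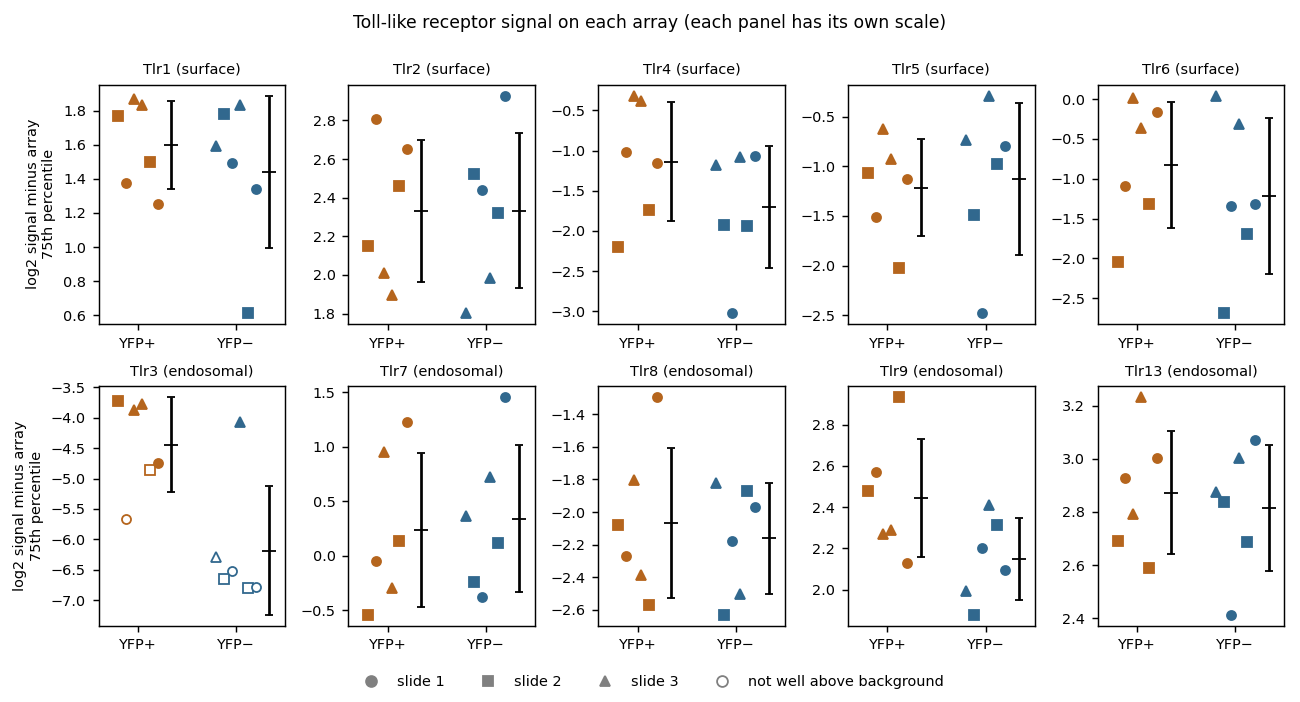
Level of each receptor on each array as log2 signal minus the array's 75th percentile, YFP+ left of YFP−, with marker shape for the slide, open markers for signals not well above background, and mean ± SD (n = 6 samples a group) beside the points. Each panel has its own scale. The groups overlap in every panel, and only Tlr3 has open markers.

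Among the listed endosomal receptors, Tlr9, which recognises DNA with unmethylated CpG, had the largest tested difference. Its level was 2.13, 2.38 and 2.93 in YFP+ samples and 1.88, 2.15 and 2.41 in YFP− samples. The 3 highest values were in YFP+ samples and the 3 lowest in YFP− samples, and the groups overlapped between them. The difference was 0.30 (SE 0.18), a fold of 1.23 with a 95% interval of 0.931 to 1.62, positive in 5 of 6 tumour numbers (limma, adjusted p = 0.62). Tlr13, which in the mouse recognises bacterial ribosomal RNA, had the smallest spread between arrays. It stood at 2.59, 2.86 and 3.23 in YFP+ samples and at 2.41, 2.86 and 3.07 in YFP− samples, with equal medians to 2 decimals. Its difference was 0.06 (SE 0.18, 95% interval −0.33 to 0.45, limma adjusted p = 0.95), and the SD over all 12 arrays was 0.23.

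Tlr7, the receptor for single-stranded RNA, was covered by 3 probes, and the brightest of them stood for the gene. On that probe the level was −0.54, 0.04 and 1.23 in YFP+ samples and −0.38, 0.24 and 1.45 in YFP− samples. Both groups spread over more than a 2-fold range and overlapped almost wholly. The difference was −0.10 (SE 0.38, limma adjusted p = 0.96). The other 2 probes gave −0.18 (SE 0.37) and −0.39 (SE 0.39), so all 3 were negative and none exceeded its error (limma on every probe alone, adjusted p = 0.92 and 0.80 for these 2). Tlr8, known in humans as a receptor for single-stranded RNA, stood at −2.57, −2.18 and −1.29 in YFP+ samples and at −2.63, −2.07 and −1.82 in YFP− samples. One YFP+ sample lay above all the others. The difference was 0.09 (SE 0.25, limma adjusted p = 0.94).

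Tlr3, the receptor for double-stranded RNA, signals through Ticam1 without Myd88. Its signal was well above background in 4 of 6 YFP+ samples and in 1 of 6 YFP− samples, under the 6 of 12 arrays required for the test. The processed signal, in the scanner's intensity units, was 70.9 at the lowest, 203 at the median and 281 at the highest in YFP+ samples, against 23.1, 24.3 and 159 in YFP− samples. The lowest signal called well above background was 97.0 to 114 on YFP+ arrays and 79.3 to 111 on YFP− arrays, so most YFP− values lay below what those arrays measured. On the log2 scale the YFP+ samples stood at −5.67, −4.31 and −3.73, and the YFP− samples at −6.80, −6.59 and −4.07. The YFP− samples lay below every YFP+ sample with 1 exception, tumour number 4, which lay among the higher YFP+ samples.

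With the filter on dim probes removed, the Tlr3 difference was 1.74 (SE 0.50, 95% interval 0.64 to 2.84), positive in 6 of 6 tumour numbers, and it did not pass (limma, adjusted p = 0.0881). Without the filter 23.3% of 31110 genes had an unadjusted p under 0.05 and 1.01% were called. In 23 of 25 alternatives it was likewise not called, among them tumour number as a block (adjusted p = 0.113) and both tumour number and slide as blocks (adjusted p = 0.0964). The others were slide alone as a block, with an adjusted p of 0.0403, and leaving out the YFP− sample of tumour number 4, with a difference of 2.17 and an adjusted p of 0.0149 (limma). Normexp background correction gave a difference of 0.16 with an adjusted p of 0.767 (limma). Markers of conventional dendritic cells, a cell type known for high Tlr3, were measured beside it. Of the list's 8 genes 6 were tested and 5 had positive differences, with a median of 0.79 and no gene called. Their summed level, in units of the array's 75th percentile, was 2.85 to 14.7 in YFP+ samples and 1.35 to 9.42 in YFP− samples, and the defining markers Xcr1 and Clec9a did not pass the filter on dim probes. The part of these cells in the Tlr3 values was not tested.

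**Figure D2:**
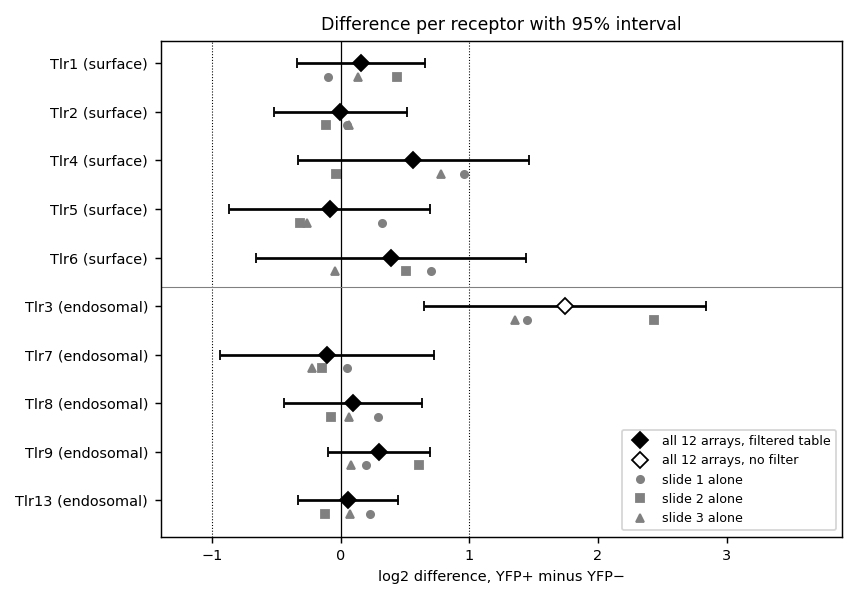
Difference between YFP+ and YFP− samples for each receptor, in log2 units, with its 95% interval from limma. Filled diamonds are the filtered table and the open diamond is Tlr3 without the filter. Grey markers are the differences within slides 1, 2 and 3, and dotted lines mark a 2-fold change. Every filled interval includes 0, and the widest are those of Tlr4 and Tlr6.

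Set side by side, the surface receptors had a median difference of 0.16 over 5 tested genes, ranging from −0.09 to 0.57, with 3 positive and 2 negative. The endosomal receptors had a median of 0.08 over 4 tested genes, ranging from −0.10 to 0.30, with 3 positive and 1 negative. With Tlr3 entered from the table without a filter, the endosomal median was 0.09. The ranges of the classes overlapped and no gene of either was called, so the medians are a description with no test. Their order was not stable. Under quantile normalization the surface median was 0.12 and the endosomal median 0.17, the deposited value table gave the same values to 2 decimals, and without the YFP− sample of tumour number 5 they were −0.005 and 0.09. Median centring raised both, to 0.37 for the surface and 0.28 for the endosomal receptors, with the median of all genes at 0.18. Within slides the surface median was 0.32, −0.04 and 0.06 on slides 1, 2 and 3, and the endosomal median was 0.21, −0.10 and 0.07. Both medians were thus positive on slides 1 and 3 and negative on slide 2. The YFP+ arrays were also brighter: their 75th percentile was 3264 to 3931 intensity units, against 2121 to 3332 on YFP− arrays, so the groups overlapped only narrowly in brightness. With brightness as a covariate the surface median was −0.98 and the endosomal median −0.42, with no receptor called. With so narrow an overlap this fit cannot separate brightness from group, so no conclusion is drawn from it. Neither class median kept its sign over all the fits.

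The arrays' slides gave a second division of the samples. Each of the 3 slides carried 2 YFP+ and 2 YFP− arrays. A moderated F test of slide, with group in the model, called Tlr2 and Tlr6, which is 2 of 9 receptors or 22.2%, close to the 20.6% of all genes. For Tlr2 the mean level was 2.71 on slide 1, 2.36 on slide 2 and 1.92 on slide 3 (limma moderated F, adjusted p = 0.0218), and all 4 arrays of slide 3 lay below all arrays of the other slides. For Tlr6 the mean was −0.98 on slide 1, −1.94 on slide 2 and −0.16 on slide 3 (limma moderated F, adjusted p = 0.00897). Tlr6 was thus highest on the slide where Tlr2 was lowest. Within slides the Tlr2 difference between groups was 0.05, −0.12 and 0.06, and the Tlr6 difference was 0.70, 0.51 and −0.04. With slide as a block the SE fell to 0.14 for Tlr2 and to 0.25 for Tlr6, and neither was called (limma, adjusted p = 0.996 and 0.471). Tumour number, tested the same way, called 0 of 9 receptors and 0 of all genes by limma. At an unadjusted p under 0.05 it took 0 of 9 receptors and 7.31% of all genes.

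**Figure D3:**
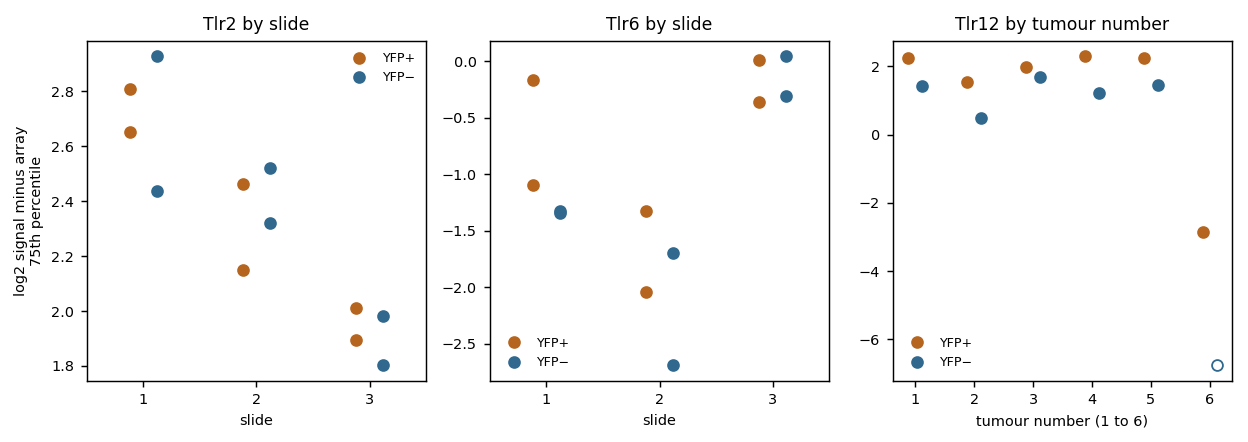
Level of Tlr2 and of Tlr6 on each array by slide, and level of Tlr12 by tumour number (1 to 6), each as log2 signal minus the array's 75th percentile, with YFP+ left of YFP− and an open marker for a signal not well above background. Tlr2 is lowest and Tlr6 highest on slide 3, and both Tlr12 values of tumour number 6 lie far below the other 10.

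The 2 remaining mouse receptors of the family, Tlr11 and Tlr12, bind profilin of the parasite Toxoplasma. Tlr12 had a median of 2.11 in YFP+ samples, from −2.87 to 2.30, and a median of 1.32 in YFP− samples, from −6.75 to 1.70. Both lowest values belonged to tumour number 6, and the YFP− one was not well above background. The difference was 1.32 (SE 1.43), positive in 6 of 6 tumour numbers (limma, adjusted p = 0.82). Without both arrays of tumour number 6 it was 0.80 (SE 0.27, limma adjusted p = 0.29), and without the YFP− array of that number alone it was −0.02. In 9 of 20370 genes, or 0.0442%, both arrays of tumour number 6 lay more than 2 log2 units below all the others, and beside Tlr12 these include Klra17, a lectin-like receptor gene, and Bank1, a B-cell adaptor gene. None of the 9 receptors tested above is among them. Tlr11 was well above background in 2 of 6 YFP+ samples and 0 of 6 YFP− samples, and without the filter its difference was 0.68 (limma, adjusted p = 0.66).

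The genes that serve these receptors were read from 7 lists holding 83 genes, of which 79 were tested. None rose and none fell at an adjusted p of 0.05, beside 0.334% and 1.41% of all genes. At an unadjusted p under 0.05 there were 4 genes, or 5.06%, beside 11.2% of all genes. Of the 79 differences 50 were positive and 29 negative, with a median of 0.14. A sign shared by all 6 tumour numbers occurred in 8.38% of all genes. Where it is given below, the gene is among those with the smallest p of its list.

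Co-receptors had 0 of 6 called and a median of −0.09. Lbp, a serum protein that carries lipopolysaccharide to Cd14, stood at −4.45, −2.87 and −0.86 in YFP+ samples and at −2.74, −1.48 and 0.12 in YFP− samples. The groups overlapped, and the difference was −1.41 (SE 0.62), negative in 6 of 6 tumour numbers (limma, adjusted p = 0.42). Cd180, a relative of the receptors that pairs with Ly86 and modulates Tlr4 signalling, had a difference of 1.21 (SE 0.57), and Ly96 one of −0.53 (SE 0.34). Neither passed (limma, adjusted p = 0.46 and 0.64). Cd180 was well above background in 6 of 6 YFP+ samples and in 3 of 6 YFP− samples. Its difference within slides 1, 2 and 3 was 2.62, 1.56 and −0.54. Markers of B and plasma cells, in which Cd180 is also known, had 1 of 11 tested genes called. This was Ebf1, which fell, as did 1.41% of all genes. Most of the list went the other way, with 7 positive and 4 negative differences and a median of 0.33. An unadjusted p under 0.05 (limma) occurred in 5 of the 11, in both directions, beside 11.2% of all genes. The list's summed level was 4.199 to 19.97 in YFP+ samples and 4.09 to 7.85 in YFP− samples. Their part in the Cd180 value was not tested.

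Among the genes that carry the endosomal receptors to their compartment and cut them there, 0 of 10 were called and the median was 0.00. Unc93b1 had a difference of 0.13 (SE 0.17), with a 95% interval of −0.24 to 0.50. The proteases Ctsl, Ctss and Lgmn, which process the receptors gave differences of −0.38, −0.39 and −0.31 in that order, each negative in at least 5 of 6 tumour numbers (limma, adjusted p = 0.55, 0.61 and 0.66).

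The adaptors had 0 of 5 tested genes called and a median of 0.35. Ticam2 (TRAM), which links Tlr4 to Ticam1, stood at −3.37, −2.35 and −1.79 in YFP+ samples and at −3.90, −2.94 and −2.70 in YFP− samples. The median YFP+ level lay above every YFP− sample while the lowest lay among them, and the difference of 0.69 (SE 0.30) was positive in 6 of 6 tumour numbers (limma, adjusted p = 0.42). Myd88, the adaptor of nearly all these receptors, and Ticam1 each gave 0.35 and did not pass (limma, adjusted p = 0.79 and 0.74). Sarm1, an inhibitory adaptor, was not well above background on any array.

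Kinases and ubiquitin enzymes had 0 of 16 called and a median of 0.15. Chuk and Irak4, a kinase of IkB and the first kinase recruited by Myd88, gave 0.36 and 0.37, both positive in 6 of 6 tumour numbers (limma, adjusted p = 0.49 for each). Irak1, which Irak4 activates, gave 0.31. Transcription factors had 0 of 9 called and a median of 0.26, with 0.44 for Nfkb1, 0.33 for Nfkb2 and −0.24 for Irf1.

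Inhibitors of the pathway had 0 of 14 called and a median of 0.25, with 11 positive and 3 negative differences. Tnip3, which restrains NF-kB with the ubiquitin-editing enzyme Tnfaip3, stood at −0.32, 0.54 and 0.98 in YFP+ samples and at −1.25, −0.44 and 0.33 in YFP− samples. Its difference of 0.92 (SE 0.31) was positive in 6 of 6 tumour numbers, and the groups overlapped (limma, adjusted p = 0.22). Cyld, a deubiquitinase, gave 0.74 and Rnf216, an E3 ligase that targets several of the receptors, 0.38 (limma, adjusted p = 0.58 and 0.66).

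Response genes had 0 of 19 tested genes called and a median of 0.03, with 10 positive and 9 negative. Cd80, a co-stimulatory ligand for T cells, stood at 1.66, 2.24 and 2.37 in YFP+ samples and at 0.92, 1.47 and 1.74 in YFP− samples. The median YFP+ level lay above every YFP− sample, the lowest YFP+ level lay inside the YFP− range, and the difference was 0.72 (SE 0.21), positive in 6 of 6 tumour numbers (limma, adjusted p = 0.13). Centring arrays on their median, which moved the median of all genes to 0.18, gave Cd80 a difference of 0.92 and an adjusted p of 0.0478, while the mean of its probes gave 0.25 (limma, adjusted p over the alternatives 0.0478 to 0.849). The chemokine genes Cxcl1 and Ccl3 gave −0.56 and −0.20, and Cxcl1 was positive in 0 of 6 tumour numbers (limma, adjusted p = 0.61 and 0.80). The inflammatory cytokine genes Tnf, Il1b and Il6 gave −0.15, −0.17 and −0.06. Il12a, Il12b and Ifnb1 did not pass the filter on dim probes.

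**Figure D4:**
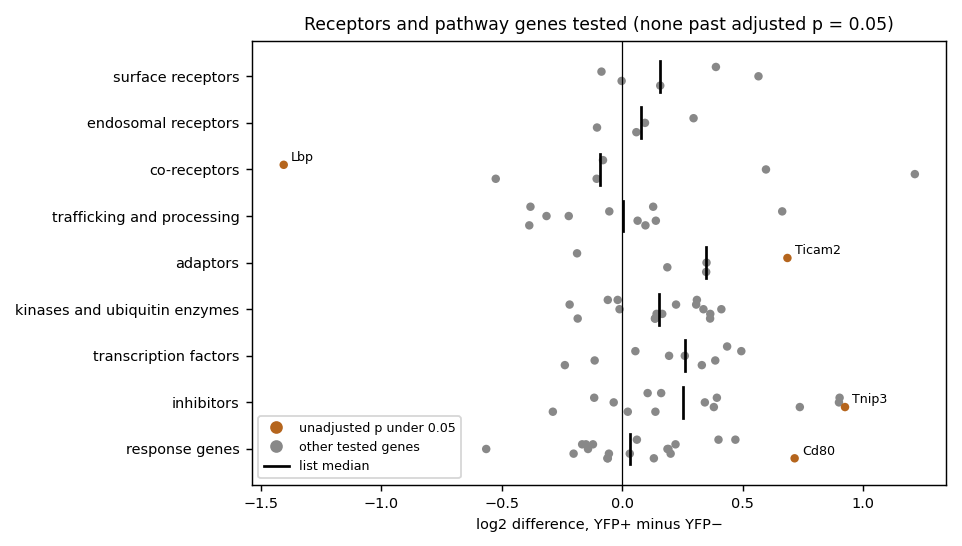
Difference between YFP+ and YFP− samples, in log2 units, for the 9 tested receptors and the 79 tested pathway genes, 1 row per list and without Tlr12, with a black bar at the list's median. Genes with an unadjusted p under 0.05 are named and none passed the adjusted threshold. The medians of the lists drawn lie between −0.09 and 0.35.

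Of 12 macrophage markers all were tested, none was called and the median was −0.16, with 1 difference positive and 11 negative. Lists of cell types other than macrophages did differ. Over all genes 1.41% were called as lower in YFP+ samples and 0.334% as higher. Fibroblast markers fell in 6 of 10 genes, with a summed level of 13.1 to 33.8 in YFP+ samples and 49.4 to 130 in YFP− samples. Epithelial markers fell in 4 of 9 tested genes, with sums of 5.23 to 12.4 in YFP+ samples and 15.7 to 42.3 in YFP− samples. Mast cell, basophil and eosinophil markers fell in 3 of 4 tested genes, red cell markers in 2 of 4 and acinar markers in 1 of 6. Neutrophil (median −1.60), plasmacytoid dendritic (−0.41), T and NK (0.38) and endothelial (0.14) markers had no gene called. Of the 9 neutrophil markers tested, 3 differences were positive and 6 negative. An unadjusted p under 0.05 (limma) occurred in 6 of these 9, in both directions, beside 11.2% of all genes. Lbp, whose value was also lower in YFP+ samples, is known in epithelial cells. The part of these cells in the receptor and pathway values was not tested.

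Across the 12 arrays each receptor's profile was set against 14081 genes with a symbol, and the 2 closest are given as a description, with samples sharing slides. For Tlr6 these were Kifap3, a kinesin-associated protein gene, with a Pearson r of 0.963, and Hspa4, a heat-shock protein gene, with 0.948. For Tlr2 they were Ninj1, a membrane-rupture protein gene, with 0.941, and Lilr4b, a leukocyte immunoglobulin-like receptor gene, with 0.940. Slide, as for these receptors themselves, was called for all 4 of these genes, and also for Crtc3, named next. For Tlr4 they were Ormdl1 (0.949) and Crtc3 (0.920), for Tlr5 Nit2 (0.947) and Trim24 (0.911), and for Tlr1 Rbmx (0.933) and Pcnx4 (0.904). For Tlr7 they were Dr1 (0.931) and Degs1 (0.912), for Tlr13 Stat5b (0.930) and Entpd5 (0.901), for Tlr9 Cryba4 (0.873) and Dock2 (0.872), and for Tlr8 Acaa2 and Zfx (both 0.826). No receptor was among the 2 closest genes of another receptor. Between receptors the highest r was 0.80, for Tlr4 and Tlr13, and the lowest was −0.45, for Tlr1 and Tlr2.

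The promoters, from 250 bases before to 50 after the RefSeq start site in GRCm38.p6, were matched for 8 of the 10 receptors, in 10 windows, without Tlr4 and Tlr7. A form of the NF-kB motif, GGG then 3 bases of any kind then TTCC, searched on both strands, occurred for Tlr2, Tlr3 and Tlr6, and in 5.56% of 32851 promoters. The matches, in capitals because the whole run is the motif, were these, at positions -173, -211 and -99 from the start site.
Tlr2: GGGGAATTCC
Tlr3: GGGAGTTTCC
Tlr6: GGGTAATTCC
The letters GAGGAA, the core of the site of the myeloid factor PU.1, occurred on either strand for Tlr1, Tlr8, Tlr9 and Tlr13, and in 28.3% of all promoters. A form of the site of interferon regulatory factors, GAAA then 2 bases of any kind then GAAA, occurred for Tlr6 alone, and in 3.44% of all promoters. It lay in another window of Tlr6 than the NF-kB letters. The percentages count windows, of which a gene can have several, whereas the receptors are counted by gene. The receptors with the NF-kB letters had differences of −0.003, 1.74 (without the filter) and 0.39, and none was called in these fits. A match describes the letters of the window and says nothing of whether a factor binds there.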

How the data were processed

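Per the labels' protocols, cells were sorted into lysis buffer, and their total RNA was amplified as cDNA and labelled with Cy5 for Agilent arrays. The deposited intensity values are processed signals of Agilent Feature Extraction 11.5.1.1, per the file headers, with background already subtracted and no scaling between arrays. A second deposited file, the authors' value table, is by its values on a log2 scale with equal column medians of 8.83. It served as an alternative, and its own processing is not given in the sources used here.

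From the intensities, 1377 control spots and spots with outlier flags were left out, repeated spots of a probe were averaged, and log2 signal minus the array's 75th percentile was taken. No probe was saturated. A probe was kept if at least 6 of 12 arrays had it well above background, and the probe with the highest mean stood for a gene, giving 20370 genes and features. The test was limma's lmFit and eBayes (limma 3.58.1, R 4.3.3) with YFP group alone in the model, adjusted by Benjamini-Hochberg over all of them at 0.05. SEs are limma's moderated ones. The number of arrays limits the precision. RefSeq tables gave names for 28309 of 39429 probes and the promoter sequences. Other settings are in the closing section.

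The genes named are the 10 members, Tlr11, Tlr12, up to 3 genes with the smallest p of each pathway list (none of these lists had a called gene), and the 2 closest genes of each member. Called cell type markers are given as counts. The cytokine and Toxoplasma-receptor values, and Unc93b1, Ebf1, Klra17 and Bank1, were chosen after their values were seen. The members and lists were chosen with earlier results of these data known. The 6 tumour numbers stand for codes in the sample titles, renumbered here. Each code occurs once in each group, and the labels do not say whether the codes mark shared animals. No 2 arrays held identical values.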

Additional observations from a re-analysis of the deposited data

Results flagged for a closer look

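The YFP− sample of tumour number 4 stood apart for Tlr3, at -4.07 on the log2 scale relative to the array's 75th percentile, with the next YFP− sample at −6.29. For Tlr12, tumour number 6 stood apart in both groups, at -2.87 among YFP+ samples, where the next lowest was 1.53, and at -6.75 among YFP− samples, where the next lowest was 0.49. Each gap, as a share of its group's range, exceeded Dixon's 95% critical value for 6 samples. In all, 28 groups of 6 values were checked, and chance flags about 1 in 20.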

How the results depend on the processing

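Tlr3 apart, which passed in the 2 fits given above, no receptor was called under any of the 29 alternatives, each slide alone included, where no gene of any kind was called. Tlr9 was positive under every alternative (0.08 to 0.61). Array brightness as a covariate moved the surface median to −0.98, the endosomal median to −0.42 and surface minus endosomal to −0.56, and turned Tlr2 (0.42), Tlr4 (−0.98), Tlr6 (−1.34), Tlr8 (−0.50) and Tlr13 (−0.34). Under it Tlr5 was −1.45 (limma, adjusted p = 0.32). Median centring gave 1 pathway call (Cd80) and turned Tlr2 (0.21), Tlr5 (0.12) and Tlr7 (0.10). Normexp correction turned Tlr2 (0.024) and Tlr8 (−0.012). Slide 1 alone turned Tlr1 (−0.10), Tlr2 (0.048), Tlr5 (0.32) and Tlr7 (0.051), slide 2 alone Tlr4 (−0.039), Tlr8 (−0.074) and Tlr13 (−0.12), and slide 3 alone Tlr2 (0.061) and Tlr6 (−0.044). Leaving out both arrays of tumour number 6, chosen after the data were seen as were the Tlr3 fits and the slide test, turned Tlr2 (0.052) and Tlr8 (−0.021). Median centring shifts the difference of every gene by the same amount, and the cause of the other turns was not tested.

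With 1 array left out at a time, differences ran from −0.0087 to 0.24 for Tlr1, −0.11 to 0.12 for Tlr2, −0.36 to 0.082 for Tlr5, −0.30 to 0.12 for Tlr7, −0.060 to 0.20 for Tlr8 and −0.022 to 0.11 for Tlr13. Tlr4 (0.30 to 0.78), Tlr6 (0.09 to 0.64) and Tlr9 (0.20 to 0.36) kept their sign. The surface median ran from −0.005 to 0.24, the endosomal median from −0.01 to 0.15, and surface minus endosomal from −0.10 to 0.24. This last was also negative under quantile normalization (−0.06), the deposited table (−0.06) and slide 3 alone (−0.009). Tlr3 ran from 1.60 to 2.17 without the filter (limma, adjusted p = 0.0149 to 0.171), and with brightness it was 1.34.

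With tumour number as a replicate block, 0 receptors and 0 pathway genes were called, with 50 genes higher and 246 lower over the whole table, and the Tlr12 SE was 0.47 (limma, adjusted p = 0.31). Same-numbered samples deviated together by over 0.1 (r) in 4 of 6 pairs, and 3 of 6 correlated best with their own number, those of tumour numbers 4, 5 and 6, whose samples also share a slide. The other 2 pairs, those of tumour numbers 1 and 3, were at −0.30 and −0.13, and their samples lay on different slides. Slide and number are mixed in these correlations, which therefore cannot decide whether the numbers pair the samples. The labels do not say what a number shares. The fit without the block was kept as the main one, and the pairing is not settled. Over all genes 68 were called higher and 288 lower, against 123 and 433 with slide as a block, 33 and 168 with both blocks, 95 and 446 with normexp, 116 and 230 with median centring, 3 and 9 with brightness, and 40 and 193 with the filter on all 12 arrays. The median of all genes was −0.18 without the filter and 0.15 with brightness. Signal over background limits Tlr3 and Tlr11.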
